A study of Homo sapiens with 6 samples.

Results

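Interferon-stimulated genes are the genes that cells switch on when interferon reaches its receptors. The receptors signal through the kinases JAK1 and TYK2 to a complex with STAT2 and IRF9, which binds a promoter sequence called the interferon-stimulated response element. Their products block viruses, sense foreign RNA or adjust the signal itself, and B cell lymphomas of the activated type are known to express many of them through signalling of the adaptor MYD88. The list held 44 genes, and OCI-LY10, a human line of diffuse large B-cell lymphoma of that type, was the cell in which they were measured. A gene was kept if a probe exceeded log2 6.7 in at least 3 of 6 arrays, a threshold that lies 3.0 SDs above the most frequent, background value. By this rule 39 of the 44 genes were kept, of 11100 kept genes in all. HERC5, IFI27, LGALS3BP and CMPK2 have probes that did not meet the rule, and STAT2 was not analysed here.

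The compound was pimasertib, which blocks MEK, the kinase that activates ERK, and the controls received its solvent DMSO. Each treatment had 1 array at 4, 8 and 12 h, so there were 3 pimasertib and 3 DMSO arrays of 1 cell line, and the dose is not given in the sources used here. Total RNA was amplified to biotinylated cRNA and hybridised to Illumina bead arrays. Nothing in the labels says whether cultures were separate, and p-values therefore reflect the scatter of the 6 arrays, part of which may be technical. All levels below are log2 intensities that had the same distribution in every array.

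Markers of the labelled cell type were present. Of 7 B cell markers with a probe, 6 were kept (CD79A, CD79B, MS4A1, CD22, BLNK and CD74) and PAX5 was not. All 5 markers of activated-type lymphoma (IRF4, FOXP1, CCND2, PIM2 and BATF) were kept. Of 6 T cell markers 1 was kept, of 6 myeloid markers 2, of 5 fibroblast markers 1 and of 5 epithelial markers 3 (EPCAM, KRT8 and KRT19). Their mean levels were 6.71 to 6.79 with pimasertib and 6.64 to 6.75 in DMSO for T cell markers, and 7.06 to 7.14 with pimasertib and 7.14 to 7.25 in DMSO for myeloid ones. Plasmacytoid dendritic cell markers, of which 4 of 5 were kept, averaged 7.87 to 7.93 with pimasertib and 7.79 to 8.07 in DMSO. The DMSO array of 8 h stood apart from the rest. Its mean correlation with the other arrays was 0.914 over all genes, against 0.944 to 0.969 for the other 5, and 0.887 over the 39 genes, against 0.903 to 0.958. Values with the 8 h pair left out are given below, and these leave out the pimasertib array of 8 h too. The part of the DMSO array by itself, or of other cell types, in the results below was not tested.

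Most promoters at hand held the core letters of the response element. The core, taken as GAAA, any 2 bases and GAAA again, was searched on both strands of the RefSeq windows (GRCh38.p14) that run from 250 bases before to 50 bases after a gene's start. A window was at hand for 37 of the 44 genes, and 28 of them (75.7%) held the core, against 4.38% of the 27305 genes with a window. The stretches below belong to the genes of smallest p or of one direction at all 3 times that held it, and to DTX3L. Each is written along its gene's strand, and the capitals mark the core, which reads TTTC, 2 bases and TTTC where it lies on the opposite strand.
IFI44L, chr1:78620244-78620424 (plus strand): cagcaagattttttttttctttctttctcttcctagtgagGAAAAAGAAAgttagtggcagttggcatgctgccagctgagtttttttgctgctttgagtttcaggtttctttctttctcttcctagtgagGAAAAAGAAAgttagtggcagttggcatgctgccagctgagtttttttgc
EPSTI1, chr13:42992242-42992331 (minus strand): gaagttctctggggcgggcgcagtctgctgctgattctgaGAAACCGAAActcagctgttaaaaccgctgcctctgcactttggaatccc
DTX3L, chr3:122564088-122564387 (plus strand): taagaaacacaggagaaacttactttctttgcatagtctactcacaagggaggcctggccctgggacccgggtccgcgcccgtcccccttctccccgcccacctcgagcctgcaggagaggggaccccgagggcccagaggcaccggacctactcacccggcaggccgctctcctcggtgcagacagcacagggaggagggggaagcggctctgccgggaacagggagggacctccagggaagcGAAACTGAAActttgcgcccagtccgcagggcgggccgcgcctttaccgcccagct
IFIT5, chr10:89414483-89414613 (plus strand): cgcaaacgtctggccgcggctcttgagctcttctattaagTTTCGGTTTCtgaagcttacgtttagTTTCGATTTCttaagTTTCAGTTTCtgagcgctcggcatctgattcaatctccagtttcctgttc
OAS3, chr12:112938291-112938511 (plus strand): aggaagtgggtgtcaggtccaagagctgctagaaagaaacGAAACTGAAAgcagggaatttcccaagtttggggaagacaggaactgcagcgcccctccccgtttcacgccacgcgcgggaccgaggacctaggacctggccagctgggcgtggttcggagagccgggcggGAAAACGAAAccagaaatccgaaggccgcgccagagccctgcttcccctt
RSAD2, chr2:6877592-6877681 (plus strand): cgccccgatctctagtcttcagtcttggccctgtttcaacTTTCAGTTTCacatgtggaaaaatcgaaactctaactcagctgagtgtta
ISG15, chr1:1013344-1013439 (plus strand): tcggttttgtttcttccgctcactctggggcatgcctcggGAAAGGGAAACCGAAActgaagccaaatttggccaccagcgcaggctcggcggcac
ISG20, chr15:88638907-88638996 (plus strand): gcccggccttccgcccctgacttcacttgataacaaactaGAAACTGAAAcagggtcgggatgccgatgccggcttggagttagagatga
BST2, chr19:17405705-17405800 (minus strand): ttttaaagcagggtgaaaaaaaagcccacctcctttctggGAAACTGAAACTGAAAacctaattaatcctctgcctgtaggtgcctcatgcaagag
The core of DTX3L, at chr3:122564332-122564341, is also the one found in the window of PARP9, which is transcribed away from DTX3L on the other strand. In IFI44L the 2 cores lie 91 bases apart within a repeat, which is 85 bases long in the whole window and runs past the end of the stretch shown. In BST2 and in ISG15 the 2 cores overlap by 4 bases and share a GAAA. Among kept genes, the 25 with a core had a median difference between pimasertib and DMSO of 0.05 on the log2 scale (-0.51 to 0.61), and the 7 with windows but no core, ADAR and OAS1 among them, had one of 0.113 (-0.36 to 0.69). A match describes the letters of a window and does not show that a factor binds there.

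The comparison asked whether MEK inhibition moved these genes. The mean differences reached 1.72-fold higher (TRIM22) and 1.42-fold lower (ISG15), and no gene of the 39 passed the test: 0 had an adjusted p under 0.05 in limma, as did 0% of all genes tested. Averaged over the 3 times, 24 were higher with pimasertib and 15 lower, with a median of 0.055 (range -0.51 to 0.79) beside 0.018 over all genes. At an unadjusted p under 0.05, 5 genes were higher (12.8%, against 3.96% of all genes) and 0 lower (against 3.57%). These were ADAR, IFI44L, PARP9, ISG20 and TRIM22. With a pair left out, 6 (without 4 h), 4 (without 8 h) and 2 (without 12 h) of the 39 had an unadjusted p under 0.05. Of the 5 named, only IFI44L stayed under it without the 8 h pair (unadjusted p = 0.0384 in limma). ADAR was then at 0.0588, ISG20 at 0.128, PARP9 at 0.135 and TRIM22 at 0.176 in limma. The pimasertib arrays lay wholly above the DMSO arrays for IFIT5, OAS1, PARP9, IFI44L and EPSTI1, or 5 genes (12.8%, against 8.4% of all genes), and wholly below them for 0 (against 8.22%). IFIT5 was above background in 3 pimasertib arrays and 1 DMSO array, so it met the filter through the pimasertib arrays. On their other kept probes the groups overlapped for OAS1 and PARP9 and did not for IFI44L. An exact test of 3 against 3 arrays cannot give a p under 0.1. At all 3 times 10 genes were higher (25.6%, against 17.4% of all genes) and 2, OAS3 and SP110, were lower (5.13%, against 15.7%). Of the higher ones, USP18 differed by only 0.025 and 0.0034 at 4 and 8 h, and IFIT5, OASL and RSAD2 had DMSO arrays below background. The direction at each time was shared by the other kept probe of IFI44L. It was not shared by the other kept probes of OAS1, PARP9, ADAR and SP110.

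**Figure D1:**
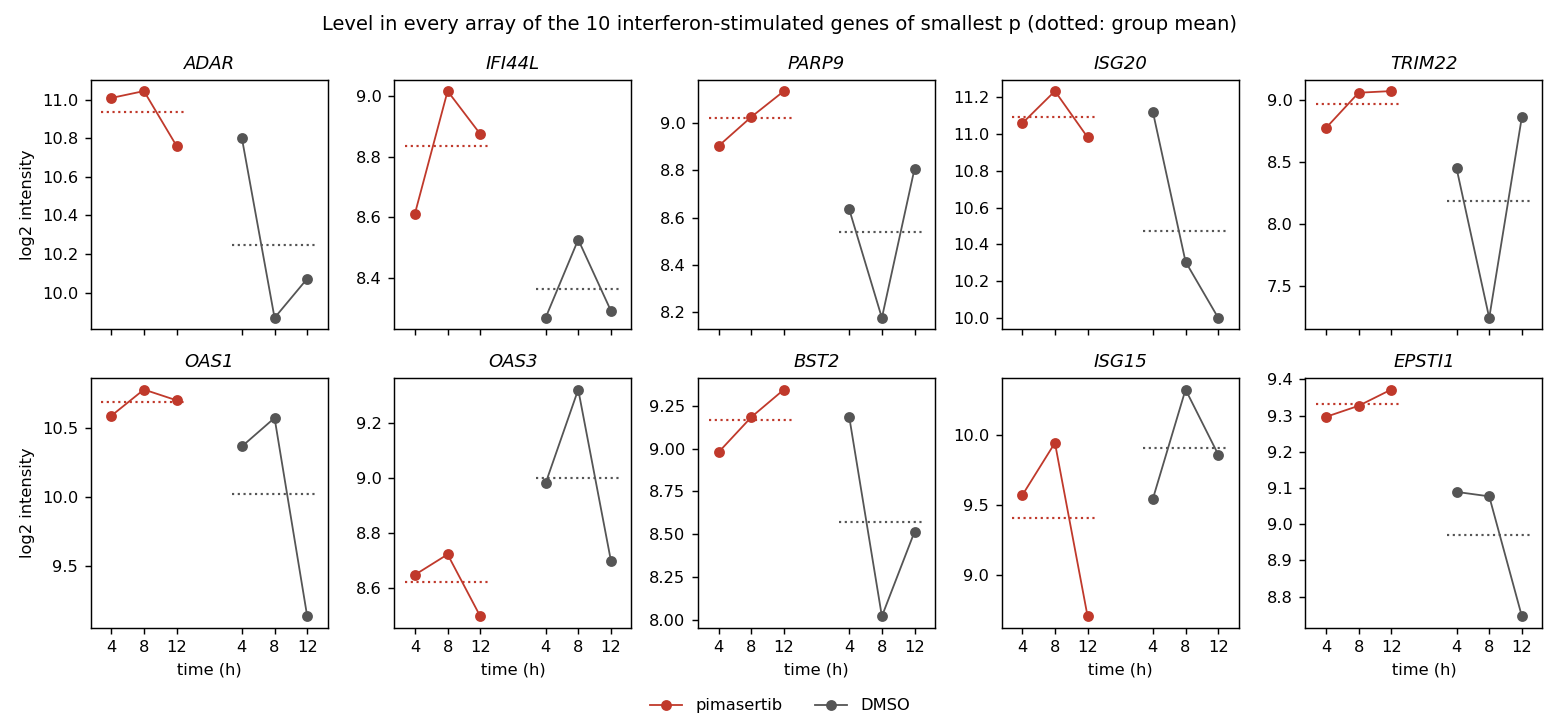
Log2 intensity (vertical axes, each with its own scale) in every array of the 10 genes of smallest p, with pimasertib in red and DMSO in grey at 4, 8 and 12 h and dotted lines at group means. IFI44L, PARP9, OAS1 and EPSTI1 show no overlap between groups, whereas in ISG20 and BST2 the DMSO array of 4 h lies above at least 1 pimasertib array.

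IFI44L and EPSTI1 were higher with pimasertib at each time, by values that did not pass the test. IFI44L, an interferon-induced gene of the IFI44 pair, was at 8.61, 9.02 and 8.87 with pimasertib at 4, 8 and 12 h, against 8.27, 8.53 and 8.29 in DMSO. Every pimasertib array was above every DMSO array, and the difference was 0.47 ± 0.17 (SE, 3 arrays per group), or 1.39-fold higher, with an adjusted p of 0.647 in limma. Its other kept probe was at 0.18, 0.54 and 0.50 by time, which is the same direction throughout. EPSTI1, named for its induction in epithelial-stromal interaction, was at 9.30, 9.33 and 9.37 with pimasertib, against 9.09, 9.08 and 8.75 in DMSO. The groups did not overlap, and the difference was 0.36 ± 0.18 (SE, adjusted p = 0.651 in limma). With the pair of any 1 time left out, the difference was 0.42 to 0.54 for IFI44L and 0.23 to 0.44 for EPSTI1, the lowest without 12 h. IFI44 had 7.90, 8.12 and 7.80 with pimasertib and 7.71, 8.27 and 6.41 in DMSO. Its difference of 0.48 ± 0.30 (SE) was 0.02 without the 12 h pair, at which time the DMSO array lay below background.

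Genes of the PARP group encode ADP-ribosyltransferases and their partner DTX3L, a ubiquitin ligase that works as a dimer with PARP9. PARP9 was at 8.90, 9.03 and 9.14 with pimasertib, against 8.63, 8.18 and 8.81 in DMSO, with no overlap. Its difference was 0.48 ± 0.19 (SE, adjusted p = 0.647 in limma), which was 0.30 without the 8 h pair. Its other kept probe was at -0.02, -0.00 and 0.39 by time. DTX3L, whose window shares its core with that of PARP9, was at 7.08, 7.11 and 7.04 with pimasertib and at 6.69, 6.54 and 7.07 in DMSO. That is close to background, and 2 of 3 DMSO arrays were below it (difference 0.31 ± 0.19, SE). Both genes had their largest difference at 8 h, and neither kept its size at 12 h. PARP14 was at 8.01, 7.99 and 7.82 with pimasertib, against 7.72, 8.46 and 6.49 in DMSO, so that the DMSO arrays lay on both sides and the one of 12 h was below background. Its differences were 0.29, -0.47 and 1.32, and PARP12 was at -0.16, 0.67 and -0.35.

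RNA sensing and editing genes differed among themselves. ADAR, which edits adenosine to inosine in double-stranded RNA, was at 11.01, 11.04 and 10.76 with pimasertib, against 10.80, 9.87 and 10.07 in DMSO. The 12 h pimasertib array overlapped the 4 h DMSO array, and the difference was 0.69 ± 0.22 (SE), or 1.61-fold higher, with an unadjusted p of 0.0166 and an adjusted p of 0.647 in limma. The other kept ADAR probe was at -0.10, 0.54 and 1.53, so it was higher at 8 and 12 h and not at 4 h. Without the 8 h pair the difference of the probe used was 0.45. EIF2AK2, which encodes the kinase PKR that halts translation on viral RNA, was at 10.45, 10.43 and 10.38 with pimasertib and at 10.26, 10.87 and 10.07 in DMSO. Its pimasertib arrays lay within 0.06 of each other while the DMSO arrays spanned 0.80, and the mean difference was 0.02 ± 0.20 (SE). The RNA sensor IFIH1, known as MDA5, had differences of 0.02, -0.12 and -0.28. DDX60, a helicase of the same pathway, had 0.06, -0.38 and -0.23.

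The OAS genes encode enzymes that make 2-5A, the messenger that activates RNase L. OAS1 was at 10.59, 10.77 and 10.70 with pimasertib, against 10.36, 10.57 and 9.14 in DMSO, a difference of 0.66 ± 0.29 (SE, adjusted p = 0.647 in limma). No array overlapped on this probe, but the low DMSO array of 12 h carried most of the difference, which was 0.21 without that pair. On the other kept probes of OAS1 the groups overlapped, with mean differences of 0.26, -0.19 and -0.21. OAS3 was at 8.65, 8.72 and 8.50 with pimasertib and at 8.98, 9.32 and 8.70 in DMSO. It was lower at each time (-0.38 ± 0.17, SE, adjusted p = 0.647 in limma), and the pimasertib array of 8 h lay just above the DMSO array of 12 h. OASL, whose product lacks that enzyme activity, was at 7.24, 7.28 and 6.99 with pimasertib and at 7.19, 6.75 and 6.63 in DMSO, where the 12 h array was below background (0.31 ± 0.18, SE). OAS2 was at 10.20, 10.55 and 10.35 with pimasertib and at 9.97, 10.44 and 10.41 in DMSO, and its groups overlapped. The genes of this family resemble each other, as do those of the IFIT, IFITM and MX families, and cross-hybridisation between family members was not tested.

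Restriction factors act on the virus directly. TRIM22, a ubiquitin ligase of this kind, was at 8.77, 9.06 and 9.07 with pimasertib, against 8.45, 7.24 and 8.86 in DMSO. The groups overlapped and the DMSO array of 8 h was the low one. The difference of 0.79 ± 0.32 (SE, 1.72-fold higher, adjusted p = 0.647 in limma) was 0.27 without the 8 h pair. With the 12 h arrays left out it was 1.07 and passed (adjusted p = 0.0268 in limma, range 0.0268 to 0.74 over the alternatives). ISG20, an exonuclease, was at 11.06, 11.23 and 10.98 with pimasertib and at 11.12, 10.31 and 10.002 in DMSO. The groups were alike at 4 h and apart by 0.92 and 0.98 at 8 and 12 h, with a mean difference of 0.61 ± 0.24 (SE, adjusted p = 0.647 in limma) that was 0.95 without the 4 h pair. BST2, known as tetherin, which holds budding virus at the cell surface, was at 8.98, 9.18 and 9.34 with pimasertib and at 9.18, 8.02 and 8.51 in DMSO. It was lower with pimasertib at 4 h and higher later, with a mean difference of 0.59 ± 0.27 (SE) that was 0.31 without the 8 h pair and 0.99 without the 4 h pair, and the groups overlapped. RSAD2, which encodes viperin, was at 7.01, 6.96 and 6.73 with pimasertib and at 6.81, 6.55 and 6.57 in DMSO, where 2 of 3 arrays were below background. MX1, a GTPase that traps viral nucleocapsids, was at 11.77, 12.04 and 11.61 with pimasertib and at 11.56, 12.20 and 11.47 in DMSO (0.06 ± 0.17, SE). The related MX2 averaged 0.00 ± 0.21 (SE).

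The IFITM genes encode membrane proteins that hinder fusion of viruses with the cell. All 3 averaged below 0, at -0.37 ± 0.20 for IFITM1, -0.26 ± 0.18 for IFITM2 and -0.18 ± 0.17 for IFITM3 (SE), and none passed (adjusted p = 0.669, 0.709 and 0.771 in limma). IFITM1 had 0.03, -0.41 and -0.74 by time, and IFITM2 0.05, -0.41 and -0.42, so both were near 0 at 4 h. With the 12 h arrays left out IFITM1 was at -0.19. SAMD9 and SAMD9L, neighbouring antiviral genes, averaged -0.08 ± 0.19 and 0.12 ± 0.18 (SE).

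ISG15 is a ubiquitin-like modifier that HERC5 attaches in human cells and USP18 removes. ISG15 was at 9.57, 9.94 and 8.70 with pimasertib, against 9.54, 10.33 and 9.86 in DMSO. The groups were alike at 4 h and differed by -0.38 at 8 h and -1.16 at 12 h, where the pimasertib array was the lowest of the 6. The mean difference was -0.51 ± 0.25 (SE, adjusted p = 0.651 in limma), the lowest of the 39 genes, and -0.18 without the 12 h pair. USP18, which also restrains the type I receptor, was at 7.74, 7.59 and 7.74 with pimasertib and at 7.72, 7.59 and 6.99 in DMSO, so that its difference of 0.26 ± 0.21 (SE) stood on the DMSO array of 12 h. HERC6, a relative of HERC5, was at 0.11 ± 0.19 (SE).

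IFIT proteins bind viral RNA at its end and block its translation. All 4 IFIT genes were measured, between 6.51 and 7.70 in every array. IFIT5 was at 6.86, 6.91 and 6.94 with pimasertib, against 6.82, 6.51 and 6.55 in DMSO, where 2 of 3 arrays were below background, and the groups did not overlap (0.28 ± 0.17, SE). IFIT1, IFIT2 and IFIT3 averaged -0.05 ± 0.20, -0.32 ± 0.20 and 0.05 ± 0.16 (SE), and none passed (adjusted p = 0.954, 0.689 and 0.939 in limma).

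Of the remaining genes, IFI6, which encodes a protein of mitochondria and the ER, was at 8.92, 8.80 and 7.87 with pimasertib and at 8.43, 8.58 and 9.24 in DMSO, with differences of 0.49, 0.22 and -1.37. Its other kept probe was at 0.07, -0.69 and -0.13, so the value of 12 h was not shared by both probes. SP110, a nuclear body protein, was at 10.13, 10.27 and 10.53 with pimasertib and at 10.25, 10.73 and 10.63 in DMSO, or lower at each time with overlapping groups (-0.22 ± 0.17, SE, and -0.11 without the 8 h pair). XAF1, a binding partner of the apoptosis inhibitor XIAP, averaged -0.36 ± 0.21, IFI35 -0.25 ± 0.21, the scramblase PLSCR1 -0.13 ± 0.21 and RTP4 0.01 ± 0.18 (SE). With the 8 h arrays left out, of which the DMSO one stood apart, XAF1 was at -0.17, IFI35 at -0.01 and PLSCR1 at 0.03. None of these 6 passed (adjusted p = 0.683 to 0.994 in limma).

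**Figure D2:**
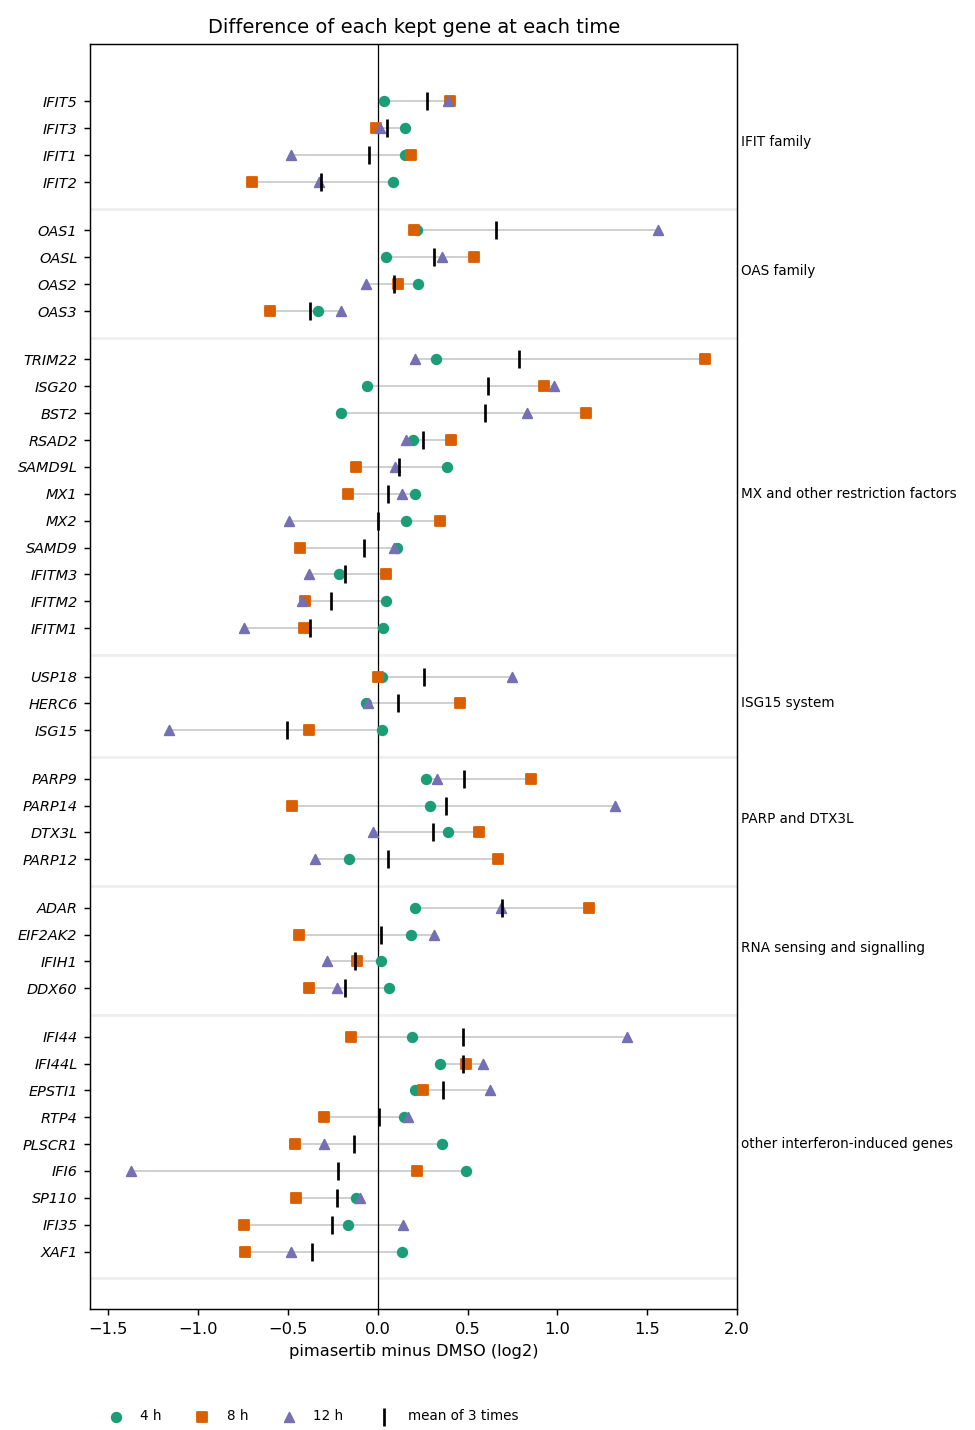
Difference between pimasertib and DMSO (log2, horizontal axis) of each of the 39 kept genes at 4 h (circles), 8 h (squares) and 12 h (triangles), with black ticks at the mean of the 3 times. Most circles lie between 0 and 0.5, whereas squares and triangles spread from -1.37 to 1.82.

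With 1 array per treatment at each time, the differences at single times are values with no test. At 4 h, 31 of the 39 genes were higher with pimasertib (79.5%, against 52.3% of all genes), by a median of 0.147 beside 0.01 over all genes, and all lay between -0.33 and 0.49. The 8 lower ones were OAS3, IFITM3, BST2, IFI35, PARP12, SP110, HERC6 and ISG20. At 8 h, 20 were higher (51.3%, against 51.4%), with a median of 0.003 beside 0.019. At 12 h, 21 were higher (53.8%, against 48.6%), with a median of 0.091 beside -0.013. Differences of at least 2-fold were absent at 4 h, where 0.036% of all genes were that much higher and 0.036% lower. At 8 h TRIM22, ADAR and BST2 were at least 2-fold higher (3 of 39, against 6.74% of all genes) and 0 lower (against 1.23%). At 12 h OAS1, IFI44 and PARP14 were at least 2-fold higher (3 of 39, against 2.81%), and ISG15 and IFI6 lower (2 of 39, against 1.28%). The values of 8 h rest on the DMSO array that stood apart, and 2 of the 3 higher genes of 12 h had a DMSO array below background there. On their other kept probes, OAS1 was at 0.28, -0.80 and -0.77 at 12 h, and IFI6 at -0.13.

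Within each treatment, the levels were steadier with pimasertib than in DMSO, as they were for genes at large. Between 4 and 8 h the levels differed by a median of 0.123 with pimasertib, whatever the direction, and by 0.460 in DMSO, against 0.085 and 0.349 over all genes. The spread of the 3 times was wider in DMSO for 30 of the 39 genes (76.9%) and for 79.4% of all genes. From 8 to 12 h, 30 of the 39 were lower in the later pimasertib array (76.9%, against 53% of all genes), with a median change of -0.209 beside -0.02. In DMSO 26 were lower (66.7%, against 49.2%), with a median of -0.204 beside 0.011. Both treatments shared the direction for 22 of the 39 (56.4%, against 26.9% of all genes). Among them were MX1, OAS1, OAS2, OAS3, ISG15, IFIH1, SAMD9L and XAF1. OAS2 differed by only -0.03 in DMSO. For OAS1 the direction in DMSO held on the probe used alone. Its other 3 kept probes were higher at 12 h there (9.78 to 10.22, 10.20 to 10.55 and 6.44 to 7.51). ISG15 differed by -1.24 with pimasertib and by -0.47 in DMSO, XAF1 by -0.74 and -0.99, and SAMD9L by -0.67 and -0.89. The DMSO values rest on the 8 h array that stood apart.

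**Figure D3:**
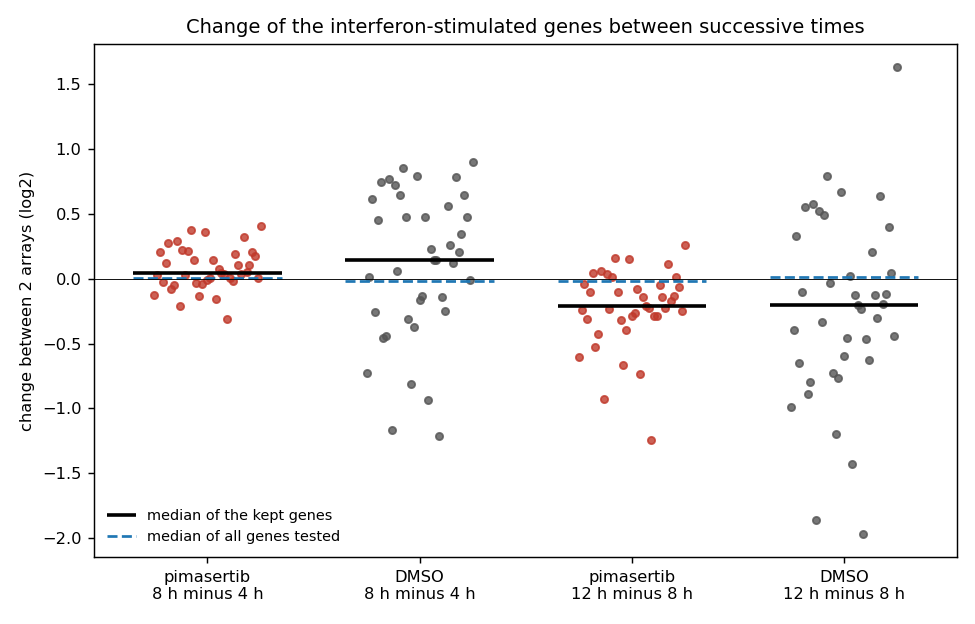
Change in log2 intensity between successive times (vertical axis) for the 39 kept genes, 1 point each, within pimasertib (red) and DMSO (grey), with black bars at their medians and blue dashed bars at the medians of all genes tested. From 8 to 12 h the medians of the kept genes were -0.209 with pimasertib and -0.204 in DMSO, and the DMSO points spread more widely at both steps.

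Whether the treatment difference changed with the hours was tested over all arrays. In limma 0 of the 39 genes passed, as did 0% of all genes, and 1 had an unadjusted p under 0.05, against 179 of the 11100 genes. That gene was IFI6, whose difference had a slope of -0.23 ± 0.06 per h (SE, unadjusted p = 0.0134, adjusted p = 1 in limma) on the probe whose 12 h value its other probe did not share. For the slope of DMSO alone 0 passed, as did 0% of all genes, and 1 of the 39 had an unadjusted p under 0.05, against 337 of the 11100 genes. It was ISG20, at -0.14 ± 0.04 per h (SE, adjusted p = 1 in limma).

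Probes of the same gene gave a check on these values. Of the 39 genes, 30 had 1 kept probe and 9 had several. The kept probes differed in the sign of the mean difference for OAS1, OAS2 and SP110. OAS1 has 4 kept probes, whose differences at 12 h were 1.56, 0.28, -0.80 and -0.77 in order of brightness. For SP110 they were -0.46, 1.62, 0.60 and -0.36 at 8 h. The 9.14 of OAS1 in DMSO at 12 h was seen by none of the other 3 probes, each of which had its own highest DMSO level there, at 10.22, 10.55 and 7.51. For ADAR and IFI44L the probes had the same sign at 8 and 12 h. The mean over kept probes was 0.13 for OAS1, 0.30 for PARP9, 0.68 for ADAR and 0.44 for IFI44L. For SP110 it was -0.002, against -0.22 on the probe used.

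**Figure D4:**
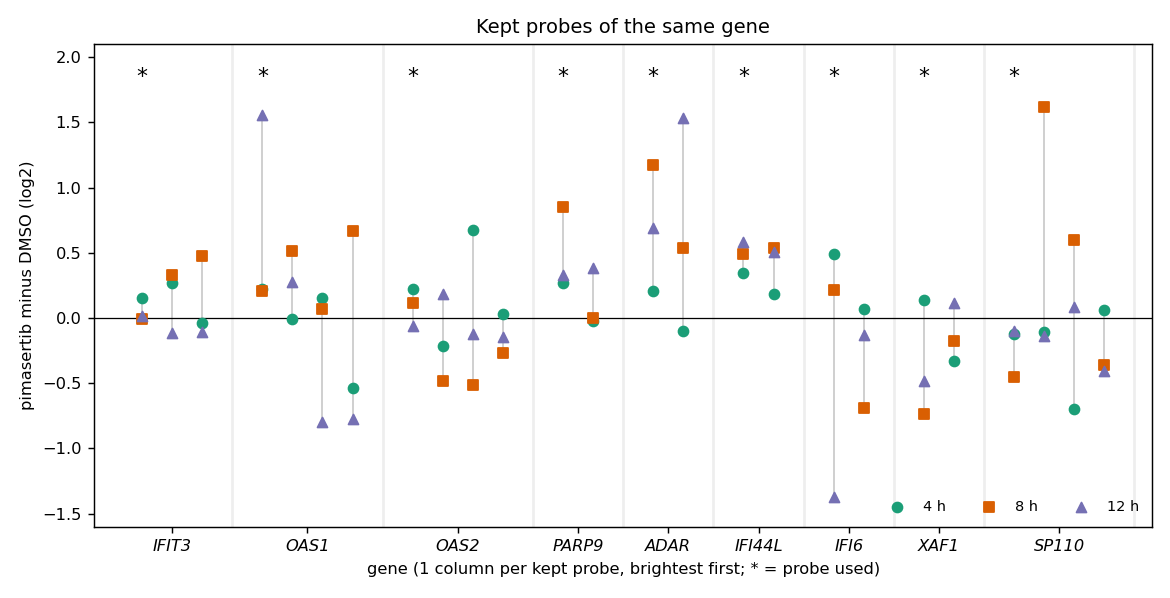
Difference between pimasertib and DMSO (log2, vertical axis) at 4, 8 and 12 h for each kept probe of the 9 genes with several, brightest probe first and a star over the probe used. The probes of OAS1 range from -0.80 to 1.56 at 12 h, and those of IFI44L lie between 0.18 and 0.58 throughout.

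The rest of the interferon pathway was examined with lists of ligands, receptors, signalling and antigen presentation genes. No interferon gene was measurable: of 20 ligands with probes, 0 were kept. All 6 receptor chains were kept. IL10RB, IFNGR2, IFNAR2 and IFNGR1 were higher at all 3 times (66.7%, against 17.4% of all genes) and 0 lower (against 15.7%). The other kept probes of IL10RB (-0.10, 0.97 and -0.38 by time) and IFNAR2 (0.09, 1.28 and -0.41) were not higher at each time. IL10RB, a chain of the interferon lambda and IL10 receptors, was at 0.44 ± 0.18 (SE) with its other probe at 0.16, IFNGR2 at 0.17 ± 0.17 and IFNLR1 at 0.11 ± 0.18 with its other probe at -0.29 (adjusted p = 0.647 to 0.877 in limma). Of the type I receptor chains, IFNAR1 was at -0.07 and IFNAR2 at 0.08.

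Of 10 kept kinases and transcription factors, 1 was higher at all 3 times (10%, against 17.4% of all genes) and 2 lower (20%, against 15.7%). IRF3, which induces interferon when RNA or DNA sensors fire, was at 8.83, 9.04 and 8.80 with pimasertib, against 9.42, 10.02 and 9.38 in DMSO. Its groups did not overlap, and the difference was -0.71 ± 0.18 (SE), or 1.64-fold lower, with an adjusted p of 0.647 in limma. IRF8, a factor of B cell and myeloid identity, was at 0.66 ± 0.21 (SE) and STAT3 at 0.21 ± 0.18, whose other kept probes were at -0.18 and -0.12. IRF9, the DNA-binding part of the complex named above, was at -0.06 ± 0.21 (SE).

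Sensors and adaptors had 13 kept genes, 0 higher at all 3 times (against 17.4% of all genes) and 3 lower (23.1%, against 15.7%). TLR9, the endosomal receptor for DNA that signals through MYD88, was at 7.89, 8.07 and 7.44 with pimasertib, against 8.42, 8.87 and 8.33 in DMSO. Its groups did not overlap either, and the difference was -0.74 ± 0.17 (SE), or 1.67-fold lower, with an adjusted p of 0.647 in limma. MAVS, the mitochondrial adaptor of RNA sensors, was at -0.38 ± 0.20 and TRAF3 at -0.34 ± 0.19 (SE). MYD88 was at 0.14 ± 0.18.

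Of 6 kept negative regulators, PTPN6, which dephosphorylates JAK kinases among other targets, was at 8.96, 8.45 and 8.69 with pimasertib, against 10.36, 10.58 and 10.99 in DMSO (adjusted p = 0.273 in limma). PTPN1, which acts on JAK2 and TYK2, was at 0.58 ± 0.22 and PIAS1 at -0.26 ± 0.21 (SE). In antigen presentation 5 of 7 kept genes were lower at all 3 times (71.4%, against 15.7% of all genes) and 1 higher (against 17.4%). The lower ones were led by the peptide loader TAPBP at -0.37 ± 0.16, HLA-B at -0.29 ± 0.18 and HLA-E at -0.28 ± 0.20 (SE). Both other kept TAPBP probes were higher at 4 h (0.06 and 0.14) and lower at 8 and 12 h. HLA-F was at -0.20 and its other probe at 0.15, and cross-hybridisation among the similar HLA genes was not tested. The gene higher at each time was NLRC5, at 0.17 ± 0.17 (SE). B2M had -0.02, -0.46 and 1.02 by time (0.18 ± 0.29, SE), and its other kept probe was higher at each time (0.23, 0.63 and 0.36). The kept guanylate-binding genes GBP2, GBP1 and GBP4 were at 0.22 ± 0.19, 0.19 ± 0.18 and 0.01 ± 0.28 (SE), and the other GBP1 probe was at 0.63. None of these pathway genes had an adjusted p under 0.05 in limma.

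**Figure D5:**
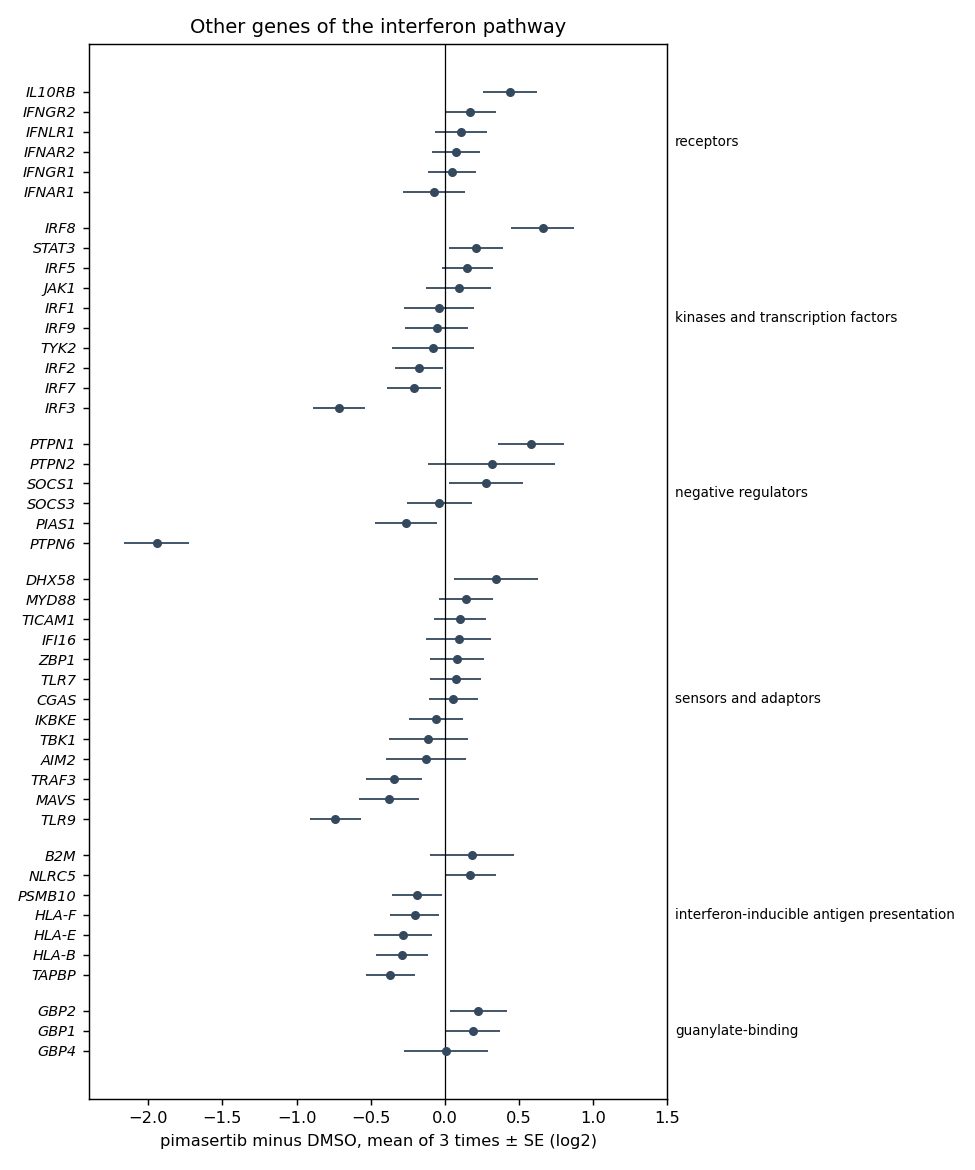
Mean difference between pimasertib and DMSO over the 3 times (log2, horizontal axis) with its SE for the kept genes of the other interferon pathway lists. PTPN6, TLR9 and IRF3 lie farthest below 0 and IRF8 farthest above, and none passed the test over all genes.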

How the data were processed

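RNA of OCI-LY10 cells under 2 treatments at 3 times was measured on 6 arrays, grouped by the labels. The deposited log2 values of 47231 probes (6.2 to 13.91) had been quantile-normalized by the authors, since the sorted columns differ by at most 0.0009; base 2 was inferred from the range. The sources used here give neither software nor background correction. Another table has 6 intensity columns that match no label and were not used. Platform annotation named 1 gene for 30113 probes. For each gene the kept probe of highest mean was used. Members and lists were chosen with earlier results of these data known. Genes given in every array are the 10 of smallest p, those of one direction at all 3 times, the 5 brightest, the 5 of largest difference at any time, and those whose probes differ in sign. DTX3L was added for the promoter it shares with PARP9, with its values known. For the pathway lists, up to 3 genes of smallest p per list were to be named. MYD88, IRF9, IFNAR1, IFNAR2, HLA-F, NLRC5 and B2M were added with their values known.

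Treatment was tested in limma 3.58.1 (R 4.3.3) with the time point as a factor, which pairs the arrays, and slopes with treatment, hours and an interaction, each with 2 residual degrees of freedom. Two-sided p-values were adjusted over 11100 genes by Benjamini-Hochberg, with a threshold of 0.05. A change of the effect with time counts as error. The code was tested on simulated data. For arrays, their number limits the precision.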

Additional observations from a re-analysis of the deposited data

How the results depend on the processing

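Tried were: probes unfiltered or above background in all 6 arrays, averaging a gene's kept probes, a robust and trended prior, no replicate block, cyclic loess, normexp with an offset of 50, and each time pair left out. The number of the 39 genes that passed stayed 0 in limma in all of them except without the 12 h pair, where 1 passed. It was TRIM22, at 1.07 (adjusted p = 0.0268), and this was the 1 fit in which variances were pooled fully over all genes. Over all genes 0 to 101 passed when a pair was left out, the highest without the 12 h pair. Over all genes 2 passed with the trended and robust prior. Members whose arrays do not overlap numbered 14 to 16 with a pair left out, when 2 arrays face 2, and the share over all genes grew too (36.8% to 42.7%). The median difference of the kept genes ran from -0.011 without the 4 h pair to 0.106 with cyclic loess. Without the replicate block, which here is the time point, it was 0.055, 0 genes passed and 4 had an unadjusted p under 0.05. No slope passed in the 6 alternatives run for it. Of the 21 genes that the rule names, EIF2AK2 (-0.06) and MX1 (-0.01) changed sign without the 4 h pair, IFI6 (0.36), PARP14 (-0.09) and EIF2AK2 (-0.12) without the 12 h pair, and OAS2 (-0.05) with the mean over probes, none of them past the threshold, and the cause was not tested. The stricter filter kept 16 of these 21 and changed no sign. The mean over probes put OAS1 at 0.13, and USP18 was 0.01 without the 12 h pair. Of the 18 others, 8 changed sign in at least 1 fit with a pair left out (HERC6, IFIT1, MX2, PARP12, PLSCR1, RTP4, SAMD9 and SAMD9L), 5 of them without the 8 h pair. Levels near 6.7 limit what can be said of the IFIT genes, IFITM3, DTX3L and RSAD2.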
